A study of Mus musculus with 6 samples.

Results

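The genes described here are the receptor genes for GABA, glycine, acetylcholine, serotonin, dopamine, noradrenaline, adenosine and opioid peptides. They were taken by symbol from the count table, which gave 78 members among 36291 gene rows. The families were 18 GABA-A receptor subunits, 2 GABA-B subunits, 4 glycine receptor alpha subunits, 13 nicotinic subunits, 5 muscarinic, 14 serotonin, 5 dopamine, 9 adrenergic, 4 adenosine and 4 opioid receptors. The protease genes of the Htra group and the kinase genes Adrbk1 and Adrbk2 share the first letters of these symbols and were left out.

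The RNA came from fluorescent (eGFP+) cells, obtained by cell sorting from the telencephalon of mouse embryos (Swiss strain) at E14.5. There were 3 wild-type (WT) libraries and 3 knockout (KO) libraries, and the series calls the knockout Sip1|Nkx2-1, Sip1 being another name of Zeb2. Cells of both genotypes are labelled as targeted by an Nkx2-1-iCre driver, so WT carries the driver and the fluorescence too, and the sort takes cells of the Nkx2-1 lineage rather than 1 neuron type. The titles carry the numbers K77, K79 and K80, once in each genotype, and do not say what a number stands for, nor whether a library is 1 embryo or several.

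Neurotransmitter receptors fall into a pair of structural groups. GABA-A, glycine and nicotinic receptors and the serotonin receptor encoded by Htr3a and Htr3b are ion channels built from several subunits. The others, GABA-B receptors included, signal through G proteins. In the embryonic ventral forebrain these receptors are present before synapses form, and GABA, glycine, serotonin and dopamine are known to act on migrating interneurons through them.

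Levels are given as CPM, the count scaled by the normalized library size, in the order K77, K79 and K80. Folds are KO against WT on the log2 scale with a standard error (SE), and a gene is called where the edgeR adjusted p is under 0.05. Depth was 8323531 to 11069437 gene counts per library. Zeb2 itself was lower in KO in each library (513 to 767 CPM in WT, 272 to 343 in KO, log2 fold change -1.11, SE 0.138, adjusted p = 0.00116). The labels do not give the part of Zeb2 that was deleted. All 8 markers listed for the medial ganglionic eminence (MGE) lineage were tested and summed to 3902 to 4478 CPM in WT and 4225 to 4959 CPM in KO libraries. Nkx2-1 was called higher and Dlx5 lower among them.

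Most receptor genes were not called, and the calls fell among receptors for serotonin, noradrenaline and acetylcholine. Of the 78 members, 44 passed the filter on low counts, 3 of them rose (Htr1a, Adra1a and Htr7), 2 fell (Htr3a and Chrm1) and 39 were not called. That is 11.4% of the tested members, against 6.27% of all 13835 genes tested. Their median log2 fold change was 0.09, against -0.01 over all tested genes, and 65.9% of the tested members had a value above 0, against 48.5% of all tested genes. KO and WT libraries did not overlap in 11 tested members, 9 of them higher and 2 lower in KO. That share of 25.0% lies near the 23.2% of all tested genes. With the K number as a block edgeR called 7 members higher and 3 lower, 22.7% against 10.6% of all genes (6.13% higher and 4.45% lower), and with that fit Chrnb2, Htr2c, Htr5a, Oprl1 and Glra2 joined the 5. Without WT K77 1 member of 49 tested rose (Htr1a) and 1 fell (Htr3a). Without KO K77 6 of 48 tested rose, among them Oprk1, which the fit on all libraries did not test. Without WT K80, KO K79 or KO K80 none fell by edgeR, where 3 lower members were at an unadjusted p under 0.05. Without KO K79 or KO K80 2 members rose, and 1 fell without KO K77. No share of all genes called was taken for the fits with a library left out. DESeq2 called 4 higher (4.03% of all genes) and 3 lower (2.8%), which is 15.9% of the tested members against 6.84% of all genes. Limma voom called 3 higher (3.68%) and 1 lower (2.62%), which is 9.09% of the members against 6.3% of all genes.

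**Figure D1:**
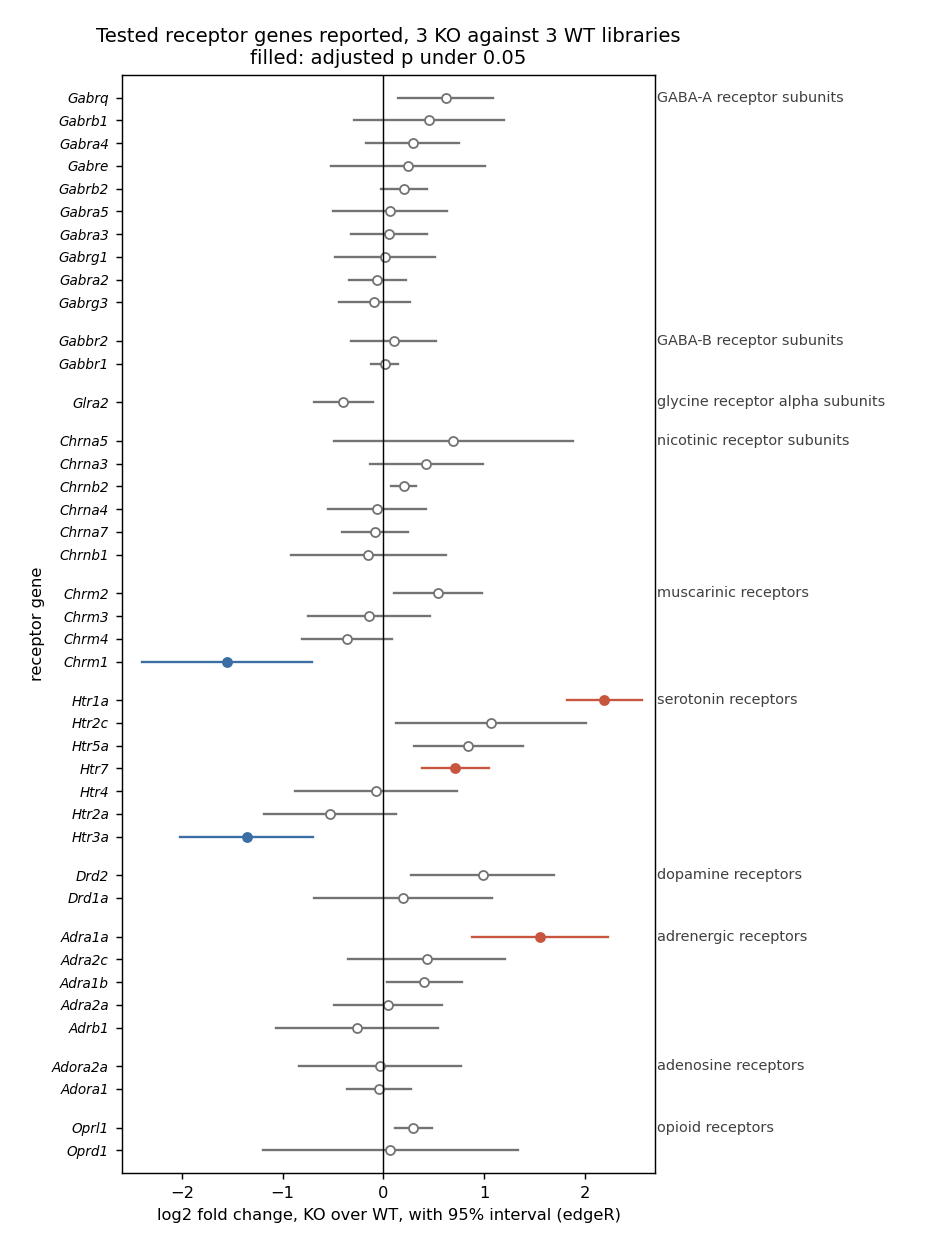
Log2 fold change of KO over WT (x axis) for the tested receptor genes reported here (y axis, grouped by family), with the 95% interval from edgeR; filled points mark adjusted p under 0.05. Htr1a, Adra1a and Htr7 lie to the right and Htr3a and Chrm1 to the left, while the intervals of the GABA-B and adenosine genes all include 0.

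Serotonin receptor genes held 3 of the 5 calls, in both directions. Htr1a, which encodes an inhibitory receptor coupled to Gi proteins, rose 4.58-fold, and Htr7, whose product raises cyclic AMP through Gs, rose 1.64-fold. Htr3a, which encodes a subunit of the serotonin-gated ion channel, fell 2.56-fold. Of the 14 serotonin receptor genes 7 were tested, and 42.9% of these were called, against 6.27% of all tested genes. With a library left out, the family's share of the 7 tested ran from 14.3% (without KO K80) to 57.1% (without WT K79). No share of all genes called was taken for these fits, so the range has no baseline beside it.

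Htr1a stood at 5.55, 7.67 and 8.91 CPM in the WT libraries and at 38.9, 29.9 and 33.4 CPM in the KO libraries. The lowest KO library lay well above the highest WT library. The log2 fold change was 2.19 (SE 0.167, 95% interval 1.82 to 2.57, adjusted p = 8.69e-05). Within the numbers K77, K79 and K80 the log2 ratio of KO to WT was 2.81, 1.97 and 1.91. Htr1a was called with each library left out (edgeR adjusted p up to 0.0014).

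Htr7 measured 8.27, 9.68 and 9.95 CPM in WT and 15.6, 13.1 and 17.2 CPM in KO. The groups did not overlap, and the spread in KO was the wider one. The log2 fold change was 0.72 (SE 0.148, adjusted p = 0.0186). The call was lost without WT K77 (adjusted p = 0.0741) or KO K80 (0.103), the highest value over the 6 libraries left out.

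Htr3a reached 18.2, 16.4 and 29.9 CPM in WT and 4.56, 10.2 and 10.1 CPM in KO. WT K80 was the highest library and KO K77 the lowest, and the groups did not overlap. The log2 fold change was -1.36 (SE 0.296, adjusted p = 0.0242), and the ratio within the numbers was -1.99, -0.69 and -1.57. Without WT K80, KO K79 or KO K80 the call was lost (edgeR adjusted p 0.0597 to 0.0631). Htr3a is also known as a marker of interneurons from the caudal ganglionic eminence. The 5 caudal eminence markers listed, of which 4 were tested, summed to 119.9 to 174.2 CPM in WT and 123.3 to 148.2 CPM in KO, with Calb2 called lower, and their part in the result was not tested. In sorted bulk cells, fewer cells of a type and less RNA per cell cannot be told apart.

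**Figure D2:**
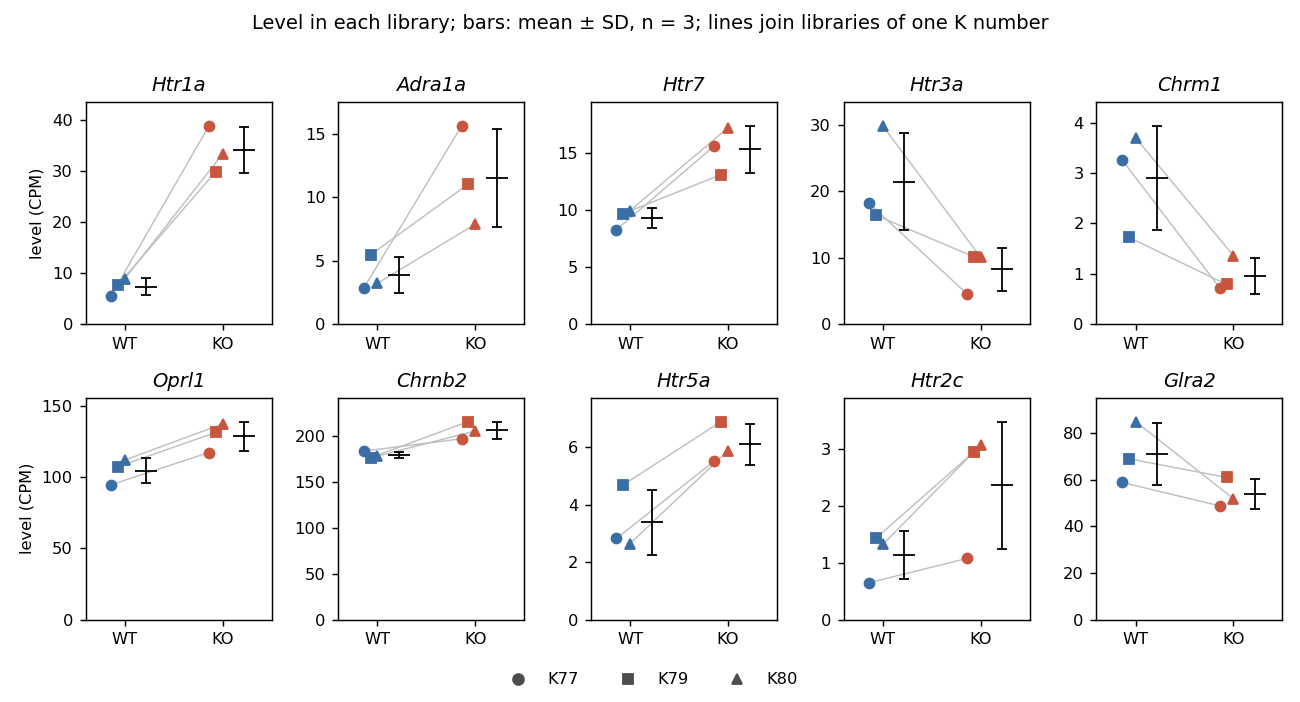
Level in CPM (y axis, linear from 0) of the 10 receptor genes called by edgeR in either design or by DESeq2, in each WT and KO library (x axis); symbols give the K number, lines join libraries of one number and bars show mean ± SD over 3 libraries. Htr1a, Adra1a and Htr7 are higher in every KO library than in any WT library, and Htr3a and Chrm1 are lower.

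Htr5a and Htr2c were not called in the unblocked fit and were called with the block. Htr5a, which encodes a receptor coupled to Gi proteins, had 2.83, 4.70 and 2.65 CPM in WT against 5.52, 6.90 and 5.88 in KO, without overlap. Its log2 fold change was 0.84 (SE 0.242, adjusted p = 0.076, and 0.0267 with the block). Htr2c, coupled to Gq, rested on 6, 15 and 14 counts in WT and 9, 30 and 34 in KO, with overlapping levels. Its log2 fold change was 1.07 (SE 0.424, adjusted p = 0.205, and 0.044 with the block). Htr5a also passed edgeR with no low-count filter (0.0302) and in the authors' deposited table (0.0336). With a library left out in the unblocked fit, Htr5a was called without WT K79 (0.0146) and its adjusted p otherwise reached up to 0.26. Htr2c was called in none of the 6 (0.0521 to 0.529). Htr2a (-0.53, 95% interval -1.19 to 0.12) and Htr4 (-0.07, -0.87 to 0.74) completed the 7 tested, with intervals too wide to tell a change from none. Among the markers of serotonergic and catecholaminergic neurons (7 in the table), Th was the 1 gene tested. The others were near the floor, with Fev and Dbh at 0. The list summed to 3.60 to 11.5 CPM in WT and 10.4 to 16.7 CPM in KO, mostly from Th.

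The 2 serotonin receptor genes that rose are shown by the 250 bases before their start site, because Zeb2 is a DNA-binding repressor known to recognise the letters CACCT. Capitals would mark CACCT or, for the other strand, AGGTG. The windows are from RefSeq on GRCm38.p6, at chr13:105443443-105443692 on the plus strand for Htr1a and chr19:36057361-36057610 on the minus strand for Htr7, each written 5′ to 3′ along the gene.
Htr1a: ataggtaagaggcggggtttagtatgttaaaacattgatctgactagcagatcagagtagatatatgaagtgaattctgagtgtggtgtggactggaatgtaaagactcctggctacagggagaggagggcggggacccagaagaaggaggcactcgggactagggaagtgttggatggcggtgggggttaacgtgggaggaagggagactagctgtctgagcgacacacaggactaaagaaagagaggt
Htr7: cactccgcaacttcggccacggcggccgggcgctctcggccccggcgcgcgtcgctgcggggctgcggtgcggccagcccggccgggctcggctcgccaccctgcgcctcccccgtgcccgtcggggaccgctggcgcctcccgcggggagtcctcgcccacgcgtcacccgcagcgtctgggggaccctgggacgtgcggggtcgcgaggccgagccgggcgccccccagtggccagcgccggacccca
Neither stretch held the letters, and each had 1 match that lay in or reached into the 50 bases after the start site. Among windows of 250 bases before and 50 after a start site, CACCT or AGGTG stood in 51.9% of 32851 windows and in 59.5% of the 74 windows of 60 members. The longer CACCTG, which contains CACCT and reads CAGGTG on the other strand, stood in 20.2% of all windows and 25.7% of the members' windows. The windows of Htr3a, Adra1a and Chrm1 are not used here. A match describes the letters alone.

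Among adrenergic receptors, which respond to noradrenaline and adrenaline, Adra1a rose and the 4 other tested genes were not called. Adra1a encodes a receptor coupled to Gq and calcium release. It was at 2.83, 5.46 and 3.22 CPM in WT and at 15.6, 11 and 7.87 CPM in KO, so that KO K77 was the highest and KO K80 the nearest to WT. The log2 fold change was 1.56 (SE 0.302, 95% interval 0.88 to 2.23, adjusted p = 0.0132), a 2.94-fold rise. The call was lost when WT K77 (adjusted p = 0.0565) or KO K79 (0.0511) was left out. Adra1b, coupled to the same pathway, had 5.55, 6.90 and 6.92 CPM in WT and 7.44, 9.26 and 8.96 in KO, without overlap, at a log2 fold change of 0.41 (SE 0.167, adjusted p = 0.219). The genes of the Gi-coupled receptors, Adra2a (0.05) and Adra2c (0.43), and the Gs-coupled Adrb1 (-0.26) overlapped between the genotypes.

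Dopamine receptor genes were sparse. Drd2, an inhibitory receptor of the D2 class, had 20, 34 and 17 counts in WT and 27, 44 and 69 in KO, with 1 KO library inside the WT range. Its log2 fold change was 0.99 (SE 0.319, 95% interval 0.27 to 1.70, adjusted p = 0.115). It passed edgeR with no low-count filter (adjusted p = 0.0368) and in the authors' deposited table (log2 fold change 0.97, adjusted p = 0.0199), but not with the block (0.083). Drd1a, whose product raises cyclic AMP, had 20, 12 and 8 counts in WT and 14, 18 and 13 in KO. Drd4, of the D2 class and below the filter, had 5, 3 and 2 counts in WT and 19, 10 and 7 in KO, without overlap, and its adjusted p was 0.0225 in the authors' deposited table and 0.0532 in edgeR with no filter. The 10 markers of striatal projection neurons, cells rich in dopamine receptors, gave 0 edgeR calls. Their sum, 603.7 to 690.3 CPM in WT and 596.1 to 679.1 CPM in KO, was mostly Bcl11b (540.2 ± 41.1 and 528.2 ± 56.1 CPM, SD, n = 3). The others had log2 fold changes of both signs, from -0.58 (Ebf1) to 0.66 (Six3), and their part in the dopamine receptor values was not tested.

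Chrm1 fell among the muscarinic acetylcholine receptors, which signal through G proteins. It encodes the Gq-coupled M1 receptor. In the later GENCODE M21 annotation 5.07% of its exon bases overlap the RNA gene Gm22820 on the opposite strand. Chrm1 rested on few reads, 30, 18 and 39 counts in WT and 6, 8 and 15 in KO. It passed the low-count filter through its WT libraries, where it is high, and the KO libraries alone would not have passed. In CPM these were 3.27, 1.72 and 3.70 against 0.72, 0.788 and 1.36, and WT K79 was the WT library nearest to KO. The log2 fold change was -1.55 (SE 0.38, 95% interval -2.40 to -0.71, adjusted p = 0.0396), a 2.93-fold fall. The call was lost with limma voom (adjusted p = 0.0591) and without any library but WT K79 (edgeR adjusted p 0.0663 to 0.169). Chrm2, the gene of the Gi-coupled M2 receptor, had 5.99, 7.38 and 6.92 CPM in WT and 8.88, 12.6 and 8.15 in KO, without overlap, at a log2 fold change of 0.54 (SE 0.196, adjusted p = 0.157). Of 7 cholinergic neuron markers tested, Isl1 and Gbx1 rose and the others were not called. The list summed to 118.2 to 241.3 CPM in WT and 258.9 to 350.1 CPM in KO. It includes Zic4, also a gene of septal and preoptic cells, and no sum without Zic4 was taken. The part of these markers in the muscarinic result was not tested. Chrm4, also Gi-coupled, had a value of -0.36 (95% interval -0.80 to 0.08), and Chrm3 one of -0.14 (-0.75 to 0.46).

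Nicotinic receptor subunits, which form acetylcholine-gated channels, gave no edgeR call in 6 tested, with 1 at an unadjusted p under 0.05 in each of edgeR, DESeq2 and limma voom and 0 called by the latter pair. The beta2 subunit gene Chrnb2 was the most abundant, and its libraries did not overlap, with 183.8, 176.6 and 178.3 CPM in WT and 197.2, 216 and 205.8 in KO. The difference was small, a log2 fold change of 0.20 (SE 0.0553, adjusted p = 0.064), and was called with the block (0.0453). With a library left out the unblocked adjusted p rose to 0.242. In the later GENCODE M21 annotation 16.3% of the Chrnb2 exon bases overlap exons of Adar on the opposite strand, and whether reads were counted by strand is not stated, so the Chrnb2 value is uncertain. The alpha subunit genes that commonly join beta2 did not follow it beyond their spread, Chrna4 having 15, 15.5 and 18.8 CPM in WT and 9.84, 16.9 and 20.1 in KO. Chrna7, which forms channels on its own, was at 10.2 ± 1.32 CPM in WT and 9.66 ± 0.49 in KO (SD, n = 3), with a 95% interval of the log2 fold change of -0.41 to 0.24. Chrna3 (0.43), Chrna5 (0.69) and Chrnb1 (-0.15) overlapped between the genotypes.

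Glycine receptors are chloride channels, and Glra2 encodes the alpha2 subunit that predominates before birth. It was the only glycine receptor alpha gene tested, at 58.8, 68.9 and 84.8 CPM in WT and 48.7, 60.9 and 51.8 CPM in KO. KO K79 lay above WT K77, so the groups overlapped. Its log2 fold change was -0.40 (SE 0.132, 95% interval -0.69 to -0.10, adjusted p = 0.127). Glra2 passed with the block (0.0356), by DESeq2 (0.0492) and in the authors' deposited table (0.00664), and the unblocked adjusted p rose to 0.347 with a library left out. Glra1, Glra3 and Glra4 had at most 8 counts each over the 6 libraries.

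Chrnb2, higher in KO, and Glra2, lower in KO, are shown in the same way as members called with the block that held CACCT before the start site. They were chosen after the matches were seen, and among the others that the block added Htr2c and Oprl1 also held a match and Htr5a did not. The windows lie at chr3:89764633-89764882 for Chrnb2 and chrX:165327394-165327643 for Glra2, both on the minus strand, and capitals mark CACCT.
Chrnb2: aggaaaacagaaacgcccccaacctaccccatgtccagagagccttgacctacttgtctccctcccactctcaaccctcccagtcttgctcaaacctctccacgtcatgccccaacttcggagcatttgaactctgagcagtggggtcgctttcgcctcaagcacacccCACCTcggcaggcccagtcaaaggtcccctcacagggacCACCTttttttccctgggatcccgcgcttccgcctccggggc
Glra2: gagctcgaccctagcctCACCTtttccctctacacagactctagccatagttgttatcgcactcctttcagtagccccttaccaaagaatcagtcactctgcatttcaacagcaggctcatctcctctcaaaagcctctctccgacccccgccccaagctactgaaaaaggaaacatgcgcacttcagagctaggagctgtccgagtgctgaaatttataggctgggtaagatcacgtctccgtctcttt
The first letters of the matches lay 81 and 42 bases before the start site of Chrnb2 and 233 bases before that of Glra2. The signs of the log2 fold change of these genes were opposite, and neither gene was called in the unblocked fit. CACCT or AGGTG stood in 51.9% of all windows, and the part of the letters in either value was not tested.

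GABA-A receptor subunit genes were among the most abundant members, and none was called. These subunits form chloride channels that usually combine alpha, beta and gamma subunits, and GABA acting on them depolarises many immature neurons. Of 18 members 13 were tested, and 0 were called by edgeR in either design, by DESeq2 or by limma voom, with 2 at an unadjusted p under 0.05 (Gabrq among them) in the unblocked fit and 4 in the blocked fit. Without KO K77 edgeR called 1, Gabrq. The log2 fold changes ran from -0.09 to 0.62, with 11 above 0 and 2 below, and the median was 0.17.

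The alpha subunit gene Gabra2 measured 46.7, 55.6 and 67.1 CPM in WT and 49.6, 52.4 and 60.4 in KO, and Gabra3 39.0, 56.9 and 57.3 CPM in WT and 40.9, 56.9 and 61.3 in KO. The genotypes overlapped for both, and in each genotype the K77 library was the lowest. Their 95% intervals of the log2 fold change, -0.35 to 0.23 for Gabra2 and -0.32 to 0.44 for Gabra3, leave out a 1.5-fold change. The beta subunit gene Gabrb2, at 105.6, 123.1 and 143 CPM in WT and 133.6, 153.3 and 140.9 in KO, had a value of 0.20 (95% interval -0.02 to 0.43, adjusted p = 0.338). The theta subunit gene Gabrq, with 5.01, 6.13 and 4.83 CPM in WT and 6.00, 8.47 and 9.87 in KO, had the largest value of the family, 0.62 (SE 0.211, adjusted p = 0.136).

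Shares of alpha subunit levels divided by exon length overlapped between the genotypes. Among alpha subunits Gabra3 made up 49.1 ± 1.42% of the length-scaled level in WT and 48.9 ± 3.66% in KO, and Gabra2 28.1 ± 2.71% and 25.9 ± 1.91% (SD, n = 3). Gabra5 stood at 10.5 ± 2.40% in WT and 10.7 ± 1.41% in KO.

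GABA-B receptors work as a dimer of the products of Gabbr1, which binds GABA, and Gabbr2, which couples to Gi proteins. Gabbr1 had the highest level per length of all members, at 410.5, 382.5 and 422.9 CPM in WT and 402.9, 399.9 and 425.4 in KO. Its log2 fold change of 0.01 had a 95% interval of -0.12 to 0.15. Gabbr2 was at 18.6 ± 5.03 CPM in WT and 20 ± 2.74 in KO, with an interval of -0.32 to 0.52. Per kilobase of exon, Gabbr1 stood at 52.2 ± 2.67 CPM and Gabbr2 at 2.79 ± 0.753 CPM in WT (SD, n = 3).

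**Figure D3:**
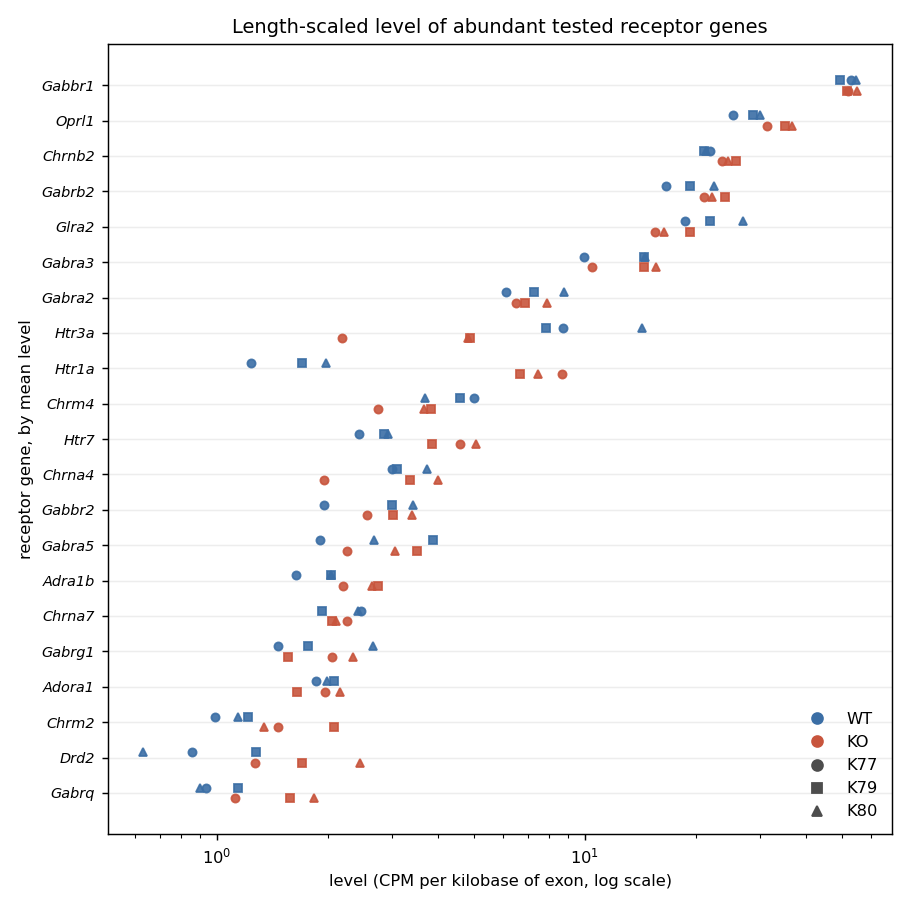
Level in CPM per kilobase of exon (x axis, log scale) of the reported receptor genes with the highest means, in each library; colour gives the genotype and symbol the K number. Gabbr1 leads at 52.2 CPM per kilobase in WT, and Htr3a and Htr1a, next to each other in the mean over all libraries, separate by genotype in opposite directions.

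Among the members reported, the order per kilobase of exon in WT after Gabbr1 was Oprl1 (27.9 ± 2.38), Glra2 (22.5 ± 4.17), Chrnb2 (21.4 ± 0.449), Gabrb2 (19.5 ± 2.94) and Gabra3 (13 ± 2.67 CPM per kilobase). Glra2, Chrnb2 and Gabrb2 differed by less than their spread. Next in WT came Htr3a at 10.3 ± 3.51 CPM per kilobase. Htr1a stood further down at 1.65 ± 0.379, with Gabra2 (7.39) and other reported members between them. In KO the order of Htr3a and Htr1a was turned, with Htr1a at 7.60 ± 1.01 and Htr3a at 3.96 ± 1.53 CPM per kilobase. The 2 ranges did not overlap in either genotype.

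Opioid receptor genes were led by Oprl1, which encodes the nociceptin receptor, a Gi-coupled receptor. Oprl1 stood at 94.6, 107.2 and 111.9 CPM in WT and 117.2, 131.3 and 137.3 CPM in KO, with no overlap. The log2 fold change was 0.30 (SE 0.0819, 95% interval 0.12 to 0.48, adjusted p = 0.0634). It was called with the block (0.00572), by DESeq2 (0.0343) and without KO K77 (0.0399), and the unblocked adjusted p ranged up to 0.258 with another library left out. Within K77, K79 and K80 the log2 ratio was 0.31, 0.29 and 0.30. Pnoc, the gene of the nociceptin precursor, rose from 8.16, 8.91 and 8.62 CPM to 22.7, 24.4 and 25.6 CPM (log2 fold change 1.5, SE 0.113, adjusted p = 8.69e-05).

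Oprk1, the gene of the kappa opioid receptor, differed between KO libraries more than between genotypes. It had 5, 2 and 1 counts in WT and 2, 40 and 53 in KO, so that KO K77 lay inside the WT range and KO K79 and KO K80 far above it. The gene did not pass the low-count filter. With no filter edgeR gave an adjusted p of 0.000629, and the authors' deposited table called it higher (log2 fold change 3.43, adjusted p = 6.09e-11). Pdyn, the gene of the dynorphin precursor whose products act on the kappa receptor, was also below the filter and had 8, 9 and 3 counts in WT and 7, 30 and 28 in KO. Its KO K77 library too lay inside the WT range. Oprm1, the mu receptor gene, had 52 counts in all and did not pass the filter. Oprd1, the delta receptor gene, had 4, 16 and 9 counts in WT and 2, 15 and 13 in KO.

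**Figure D4:**
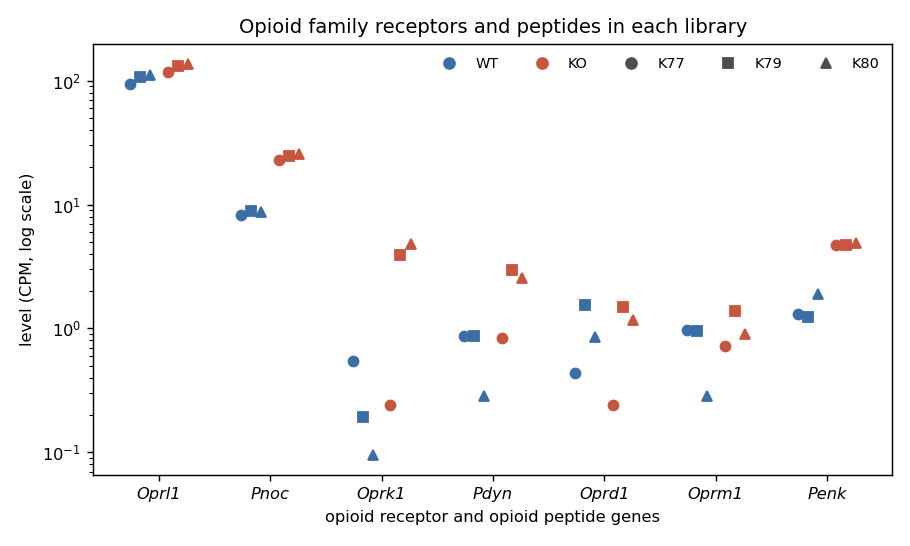
Level in CPM (y axis, log scale) of 4 opioid receptor genes and 3 opioid peptide precursor genes in each library; colour gives the genotype and symbol the K number. Pnoc and Penk separate fully by genotype, Oprl1 by a small step, and Oprk1 and Pdyn are high in KO K79 and KO K80 and not in KO K77.

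Of the 4 adenosine receptor genes 2 were tested, and 0 were called by edgeR, DESeq2 or limma voom, with 0 at an unadjusted p under 0.05. Adora1, whose product inhibits adenylyl cyclase, had 10.8, 12.1 and 11.6 CPM in WT and 11.4, 9.56 and 12.5 in KO, a log2 fold change of -0.04 (95% interval -0.36 to 0.28, adjusted p = 0.921). In GENCODE M21 20.1% of its exon bases overlap Mybph on the opposite strand. Adora2a, whose product raises cyclic AMP, had 10 to 16 counts per library in WT and 10 to 15 in KO.

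The other 34 members did not pass the filter, and 5 of them (Gabrr3, Chrna10, Chrna6, Chrna9 and Adra1d) had no count in any library. A count of 0 allows up to 3 counts in a library, which covers counting error alone. Oprk1 had the most counts of the 34, 103 in all. Htr6, whose product couples to Gs, had 1, 4 and 3 counts in WT and 5, 8 and 13 in KO, without overlap in CPM, and edgeR with no filter gave an adjusted p of 0.119. Htr1d, a Gi-coupled receptor, had 6, 13 and 9 counts in WT and 1, 4 and 7 in KO (adjusted p = 0.323 with no filter). Among the untested members, only Oprk1 was called by edgeR with no filter.

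Partner genes were taken from a list of 99 genes for receptor anchoring and auxiliary proteins, transmitter synthesis and transport, opioid peptides and receptor signalling. Of the 99 genes 96 were in the table and 73 were tested, and 9 rose, 2 fell and 62 were not called. Over all tested genes, 3.64% were called higher and 2.62% lower. The list was chosen with earlier results of these data known, so setting its counts beside these shares is no test. The list's median log2 fold change was 0.06. With the block 14 partner genes were called higher and 6 lower, where that fit called 6.13% of all genes higher and 4.45% lower.

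Anchoring and auxiliary proteins held 5 of the risers and 1 of the falls among 25 tested. Hap1, which helps return GABA-A receptors to the membrane, went from 129.9, 190.1 and 111.2 CPM to 248.7, 374 and 379.5 CPM (log2 fold change 1.22, SE 0.202, adjusted p = 0.00551). Shisa7, an auxiliary protein of GABA-A receptors, rose by a small step, from 174.9, 179.4 and 178.6 to 210.8, 213.4 and 233.3 CPM (0.30, adjusted p = 0.0117, and up to 0.0643 with a library left out). Plcl1, which binds GABA-A receptors and their trafficking proteins, rose by 0.74. Kctd16, an auxiliary subunit of GABA-B receptors, was near the limit of detection in WT, at 0.331 ± 0.0497 CPM. In KO it was at 1.5 ± 0.163 CPM (SD, n = 3), and it passed the low-count filter through KO alone. Gphn, the gene of gephyrin, which anchors GABA-A and glycine receptors, was not called (-0.02, SE 0.0813).

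On the nicotinic side of that list, Lypd6, which modulates nicotinic receptors, rose and Tmem35, the gene of a chaperone for their assembly, fell. Lypd6 had 14, 22.2 and 17 CPM in WT and 35.2, 29.9 and 33.2 in KO (0.88, SE 0.151, adjusted p = 0.00693). Tmem35 had 144.2, 122 and 160.1 CPM in WT and 85.4, 91.4 and 96.7 in KO (-0.64, SE 0.0964, adjusted p = 0.00345). The assembly factor gene Ric3 had a value of 0.12 (adjusted p = 0.362). Chrnd, a subunit gene of the muscle-type receptor and below the filter, had 1, 0 and 0 counts in WT and 15, 6 and 11 in KO.

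Genes of transmitter synthesis, transport and breakdown held 1 fall and 0 edgeR rises among 14 tested. The fall was in the nucleoside transporter gene Slc29a2 (-0.53, SE 0.108, adjusted p = 0.0172, and up to 0.0767 with a library left out). Th, the rate-limiting enzyme of catecholamine synthesis, had 47, 117 and 37 counts in WT and 82, 144 and 173 in KO, with overlap. Its log2 fold change of 1.00 (adjusted p = 0.145) was called with the block (0.0436). Th was also called higher by DESeq2, and by edgeR with no low-count filter and without WT K79. The block also called Maoa, which breaks down monoamines (-0.37, adjusted p = 0.0778, and 0.0367 with the block), and the nucleoside transporter gene Slc29a1 (-0.51, adjusted p = 0.0851, and 0.035 with the block) lower. In this list the libraries did not overlap for 5 of the 14 tested genes, all lower in KO, and over all tested genes that share was 11.4% lower and 11.8% higher. Among opioid peptides Penk rose beside Pnoc, by 1.67 (SE 0.234, adjusted p = 0.00224). In receptor signalling Adcy5, an adenylyl cyclase, rose from 50.7, 56.4 and 53.2 to 75.5, 75.9 and 83.2 CPM (0.55, SE 0.0746, adjusted p = 0.00188). The gene Kcnj6, a potassium channel opened by Gi-coupled receptors, rose from 0.871, 1.72 and 1.71 to 3.96, 4.63 and 5.70 CPM.

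Markers of other cell types moved with the genotype in some lists. Oligodendrocyte precursor markers fell in 5 of 5, from a sum of 79.52 to 87.1 CPM to one of 13.7 to 21.4. Lists for endothelium, pericytes and meninges, microglia, erythroid cells and cortical glutamatergic neurons gave 0 edgeR calls. The part of these cell types in the receptor results was not tested.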

How the data were processed

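The authors deposited whole read counts per gene for 6 libraries, not normalized, in 6 files and 1 table that held the same counts. Tools listed in the submitters' processing notes are DESeq 1.2.2, HTSeq 0.5.3p3 and TopHat 1.2.0, and the listed build is mm9. For strand use and gene annotation, the sources used here give nothing. Per the file headers, the authors' deposited table of the comparison holds p-values, log2 values and a ratio between genotypes. Its mean (a signal of normalized counts, per the file headers) was left aside. Its direction was taken as KO over WT, since 777 of 777 calls shared with edgeR had the same sign in both. Rows that name no gene (19.8 to 21.8% unassigned and 1.94 to 1.99% ambiguous) stayed out.

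Counts were tested in R 4.3.3 with edgeR 4.0.16 (TMM, filterByExpr with a minimum count of 10, quasi-likelihood test, genotype alone), with Benjamini-Hochberg adjustment over 13835 genes. Standard errors divide the log2 change by the square root of F. Alternatives were RLE factors, DESeq2 1.42.0, limma 3.58.1 voom, no filter, 1 CPM in 3 libraries, thresholds of 0.01 and 0.1, the K number as a block, and each library left out. Same-numbered libraries deviated together across genes (correlations 0.274, 0.216 and 0.196 on log2 CPM plus 1, against a limit of 0.1), so the blocked value stands beside a result whose call it changes. Whether libraries are separate embryos is not labelled; p-values then reflect library spread alone, which exceeded counting noise and may be technical.

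Exon lengths are unions over GENCODE M21 (GRCm38) gene models, found for all 78 members, 1 of them (Drd1a) by a synonym; they are of a later build than mm9, and no coordinate was joined to the counts. The members and lists were chosen with earlier results of these data known. The named members are those called in the unblocked or blocked fit or by DESeq2 and the most abundant of each family; the others named were chosen after their values were seen. At most 12 called partner genes were to be named. Some genes of the families and lists are not reported here by name, though the counts include them. On simulated counts the fit recovered 49% of 1.5-fold, 82% of 2-fold and 92% of 3-fold changes. Of its calls on those counts, 8.05% were false.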

Additional observations from a re-analysis of the deposited data

How the results depend on the processing

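The counts of called members moved with the setting. Against 3 higher and 2 lower of 44 tested, edgeR called 7 higher of 73 tested with no low-count filter. It called 7 higher with the replicate block, 1 at an adjusted p under 0.01 and 6 under 0.1. For the fits with no filter, another threshold or a library left out, no share of all genes called was taken. Whether those counts only follow the calls over all genes is therefore not shown. Lower members numbered 1 with limma voom and 0 at an edgeR adjusted p under 0.01, where 3 were at an unadjusted p under 0.05 and DESeq2 called 3 at 0.05. With each library left out in turn, 1 to 6 members were higher and 0 to 2 lower, of 45 to 49 tested. Partner genes, 9 higher and 2 lower, gave 14 higher and 4 lower with no filter. With the replicate block they gave 14 higher and 6 lower, beside 6.13% and 4.45% of all genes. At an adjusted p under 0.01 there was 1 lower partner gene, and under 0.1 there were 5. Left-out libraries gave 8 to 12 higher and 1 to 4 lower partner genes. Htr1a was called under every alternative run. With 1 library left out the sign turned in 18 of the 44 tested members, none of them called by edgeR in the unblocked fit. Among the members named by rule these were Gabbr1 without WT K79 (-0.026) or KO K80 (-0.0147) and Adora1 without KO K79 (0.0575); over the 6 libraries left out the ranges were -0.026 to 0.0441 for Gabbr1 and -0.1365 to 0.0575 for Adora1. RLE factors and the filter at 1 CPM changed no call of a member or partner gene. The replicate block took no call of a member or partner gene away. Beside Th, Maoa and Slc29a1, the partner genes it added were Adcy2, Caly, Gnaz and Lypd6b (higher) and Arrb1 and S100a10 (lower). Low counts limit Chrm1, Htr2c, Drd2 and the 34 members below the filter.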

Other observations

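As with Oprk1 and Pdyn, KO K77 was the lowest KO library for 2 transcription factor genes outside the receptor families. Isl1, a gene of cholinergic and striatal neurons, had 364, 716 and 779 counts in the KO libraries K77, K79 and K80, against 272, 444 and 243 in WT. Zic4, a zinc finger gene of septal and preoptic cells, had 673, 1497 and 1552 counts in KO and 154, 854 and 233 in WT. For Drd4 and Adra1a KO K77 was the highest KO library, with 19 and 130 counts. These genes were picked after their values were seen, and no test was made.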
